A study of Bos taurus with 179 samples.

Results

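The COPI coatomer is the protein coat of vesicles that bud from the Golgi apparatus. Its genes in the raw count table of growing bovine oocytes were taken as COPG1 together with those of ARCN1, COPA, COPB1, COPB2, COPE, COPG2, COPZ1 and COPZ2 that the study's list of commonly expressed genes paired with a gene ID. This gave 7 of the 9 genes, among 21218 gene IDs in the table. COPA (alpha-COP) and COPE (epsilon-COP) were not paired in the copy used here and were not analysed here.

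COPI vesicles carry proteins back from the Golgi to the endoplasmic reticulum and between Golgi cisternae. The small GTPase ARF1, in its GTP-bound form, recruits the coatomer as a preassembled complex to the membrane. The beta, delta, gamma and zeta subunits form a layer related to the clathrin adaptors, and the alpha, beta-prime and epsilon subunits form the outer layer. The gamma and zeta subunits each have a pair of paralogs, gamma-1 (COPG1) and gamma-2 (COPG2), and zeta-1 (COPZ1) and zeta-2 (COPZ2). A growing oocyte secretes its zona pellucida and fills its cytoplasm with cortical granules, both products of the secretory pathway.

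Single Bos taurus oocytes came from late secondary to antral follicles of abattoir ovaries, with no treatment compared. Fully grown oocytes were aspirated first, and growing ones were then freed by slicing the opened ovaries in a medium with cilostamide. Recovered oocytes were washed in this medium. The labels do not name the route of an oocyte, so the part of the route in differences between sizes was not tested. Oocytes were freed from follicle cells by pipetting and their diameter was taken. Their mRNA was captured by its poly(A) tail, amplified and sequenced. Of 179 deposited oocytes all but 14 were used here. They fell in 8 size groups of < 60 μm (21 oocytes), 60 to 69 μm (25), 70 to 79 μm (23), 80 to 89 μm (24), 90 to 99 μm (21), 100 to 109 μm (18), 110 to 119 μm (19) and > 120 μm (14). Libraries were made in 2 replicates, replicate 1 with reads of 150 bp (97 oocytes) and replicate 2 with reads of 75 bp (68 oocytes), and each oocyte belonged to 1 of them. Neither the labels nor the methods name the animal of an oocyte, so that p-values measure the spread between sums of oocytes and not between cows.

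An oocyte held from 277126 to 8038061 counts (median 1763520), and the counts of all oocytes of a size group and replicate were summed to 16 sums of 4467434 to 46545515 counts. Levels are given as CPM of the TMM effective library size, and no level was compared between genes because transcript lengths were not available here. The paired oocyte markers (BMP15, BTG4, BCAR4 and ACTL8) together held 3111 to 9223 CPM per sum. The 6 paired gene IDs of granulosa and theca cells held 0.667 to 6.76 CPM, mostly from HSD17B1, which had 999 counts in 123 oocytes, while CYP11A1 was at 0 in 10 of the 16 sums and CYP17A1 at 0 in 14 and 11 sums for its 2 IDs. The 9 stroma, vessel and immune markers held 5.80 to 28.3 CPM, mostly from ACTA2 (up to 20.4 CPM) and COL1A2 (up to 9.38 CPM), each seen in 143 oocytes, while CD14 was at 0 in 15 sums and CD34 and COL1A1 each at 0 in 14. In the sum of 100 to 109 μm oocytes of replicate 1, a single oocyte of 7856854 counts held 52.9% of the counts. Leaving it out changed the number of called subunits in none of the 9 comparisons, and the values that it moved most are also given without it.

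Since the genes were taken from a list of genes expressed in all 8 size groups, their presence in each group follows from that choice. Every analysed oocyte had at least 1 count of ARCN1, COPB1, COPB2, COPG1, COPG2 and COPZ1, and 155 had a count of COPZ2. With each oocyte thinned to 250000 counts, COPG1 was seen in 159 oocytes, COPZ1 in 163 and COPZ2 in 119, and the other 4 subunits in every oocyte. Together the 7 genes took a median of 0.192% of an oocyte's counts at < 60 μm, 0.149% at 90 to 99 μm and 0.105% at > 120 μm. By replicate the median went from 0.192% in both at < 60 μm to 0.0932% in replicate 1 and 0.114% in replicate 2 at > 120 μm. Single oocytes held 0.126% to 0.271% at < 60 μm and 0.0457% to 0.123% at > 120 μm. How often other genes part in this way was not computed. COPB1 and COPB2 held the most counts of the 7 (186881 and 148493), so the share follows mostly these 2. All levels are shares of the captured mRNA. The amount of RNA per oocyte was not measured, and fewer transcripts and shorter poly(A) tails cannot be told apart.

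Most coatomer subunits took a smaller share of the captured mRNA in larger oocytes. In the linear trend over the 8 size groups, 6 of the 7 subunits were downregulated with diameter and none was upregulated (edgeR quasi-likelihood test with Benjamini-Hochberg adjustment, adjusted p between 9.72e-05 and 0.0342). Without the > 120 μm sum of replicate 1 the trend called 2 of them, and without the < 60 μm or the 100 to 109 μm sum of replicate 2 it called COPZ1 as higher. Of the 14087 genes tested, 34.8% were called in this trend, 19.4% as lower and 15.4% as higher. The median slope of the 7 subunits was -0.11 on the log2 scale per 10 μm, against -0.02 for all genes tested. The test for any difference over the 8 groups, which called 14.9% of all genes, called only COPG1 (adjusted p = 0.0282) and COPZ2 (adjusted p = 0.00444) among them, while the other 5 had adjusted p-values of 0.107 to 0.268. COPG1 lost this call without the 100 to 109 μm or > 120 μm sum of either replicate or the 110 to 119 μm sum of replicate 1 (adjusted p from 0.0519 to 0.117) and with all 179 deposited oocytes (adjusted p = 0.0776). Summed granulosa and theca markers were lower in the largest than in the smallest group. They went from 6.76 to 0.667 CPM in replicate 1 and from 6.34 to 2.80 CPM in replicate 2. Of these markers 2 were tested between the end groups, with log2 fold changes of -3.02 and 0.16. The summed stroma, vessel and immune markers went the other way, from 5.80 to 21.7 CPM and from 8.54 to 9.08 CPM. The part of such cells in the decline of the subunits was not tested. Without the replicate block, the trend called COPZ2 alone (7.68% of all genes) and the test for any difference called none of the 7 (0% of all genes).

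**Figure D1:**
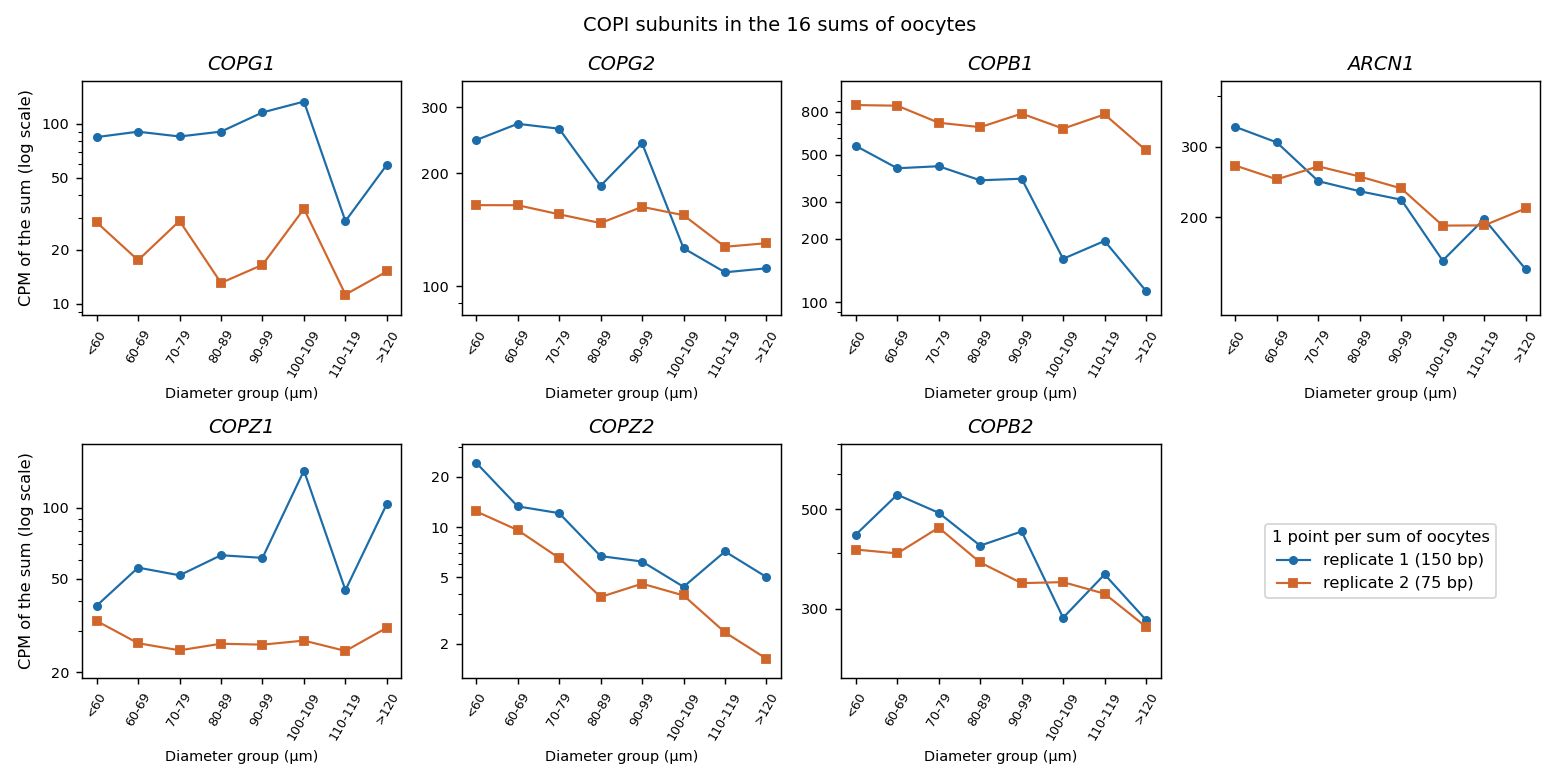
CPM (log scale) of the 7 COPI subunits in the 16 sums of oocytes, by diameter group in μm, with 1 point per sum and the lines joining the sums of replicate 1 (circles) and replicate 2 (squares). COPB1, ARCN1, COPG2, COPB2 and COPZ2 end lower than they start in both replicates, and COPG1 drops between 100 to 109 and 110 to 119 μm from 133 to 28.8 CPM in replicate 1 and from 33.7 to 11.3 CPM in replicate 2.

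COPG1 (ENSBTAG00000013212) encodes gamma-1-COP, a core subunit of the adaptor-like layer. It was lowest at 110 to 119 μm in both replicates. In replicate 1 the sums from the smallest to the largest group held 84.3, 90.3, 84.9, 90.4, 116, 133, 28.8 and 59.2 CPM, and in replicate 2 they held 28.4, 17.5, 28.9, 13.1, 16.5, 33.7, 11.3 and 15.1 CPM. In both replicates the sum at 100 to 109 μm was the highest and the sum at 110 to 119 μm the lowest of the 8. Without the dominating oocyte the 100 to 109 μm sum of replicate 1 was at 106.8 CPM, below the 114.4 CPM of the 90 to 99 μm sum in that scaling.

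COPG1 was downregulated 3.68-fold at 110 to 119 μm compared with 100 to 109 μm (log2 fold change -1.88, SE 0.36, edgeR adjusted p = 0.0283). It was the only called subunit of the 7 in this comparison, in which 3.88% of all genes tested were called, 1.99% as lower. The log2 fold change was -2.20 within replicate 1 and -1.58 within replicate 2. COPG1 ceased to be called without the sum of 100 to 109 μm of replicate 1 (adjusted p = 0.275) or that of 110 to 119 μm of replicate 1 (adjusted p = 0.434), with log2 fold changes of -1.90 and -1.52. In both of these fits 0% of all genes were called in this comparison. It remained called without the single oocyte that dominated the former sum (-1.71, SE 0.36, adjusted p = 0.0255), and was not called with all 179 deposited oocytes (-1.78, adjusted p = 0.112) or without the replicate block (-2.05, adjusted p = 0.835).

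Single oocytes showed the same drop, and in replicate 1 the size groups were separate. The 11 oocytes of 100 to 109 μm held 81.4 to 174 CPM of COPG1 (median 101) and the 12 oocytes of 110 to 119 μm held 8.67 to 73.6 CPM (median 24.7). Every oocyte of the smaller group was thus above every oocyte of the larger one, and of all genes tested 0.618% had no overlap in this direction in replicate 1. No other subunit was without overlap there. In replicate 2 the 7 oocytes of 100 to 109 μm held 7.70 to 105 CPM (median 24) and the 7 oocytes of 110 to 119 μm 3.04 to 48.4 CPM (median 6.25), and 2 of the former stood above all of the latter.

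**Figure D2:**
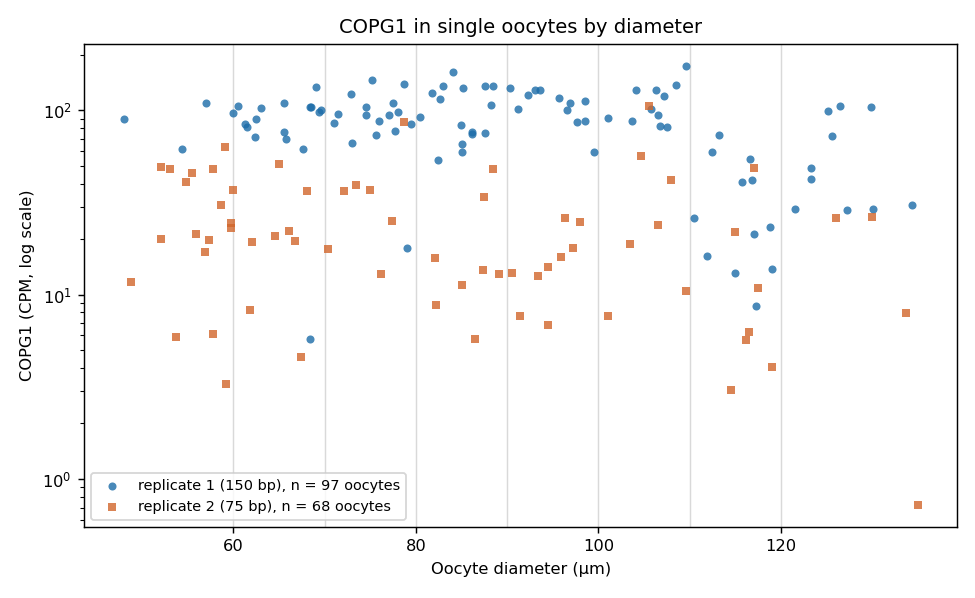
COPG1 in CPM (log scale) against oocyte diameter in μm, with 1 point per oocyte, circles for replicate 1 (97 oocytes) and squares for replicate 2 (68 oocytes), and grey lines at the limits of the size groups. From 110 to 119 μm all replicate 1 oocytes lie at or below 73.6 CPM, and replicate 2 lies lower than replicate 1 in most of the size range.

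**Figure D3:**
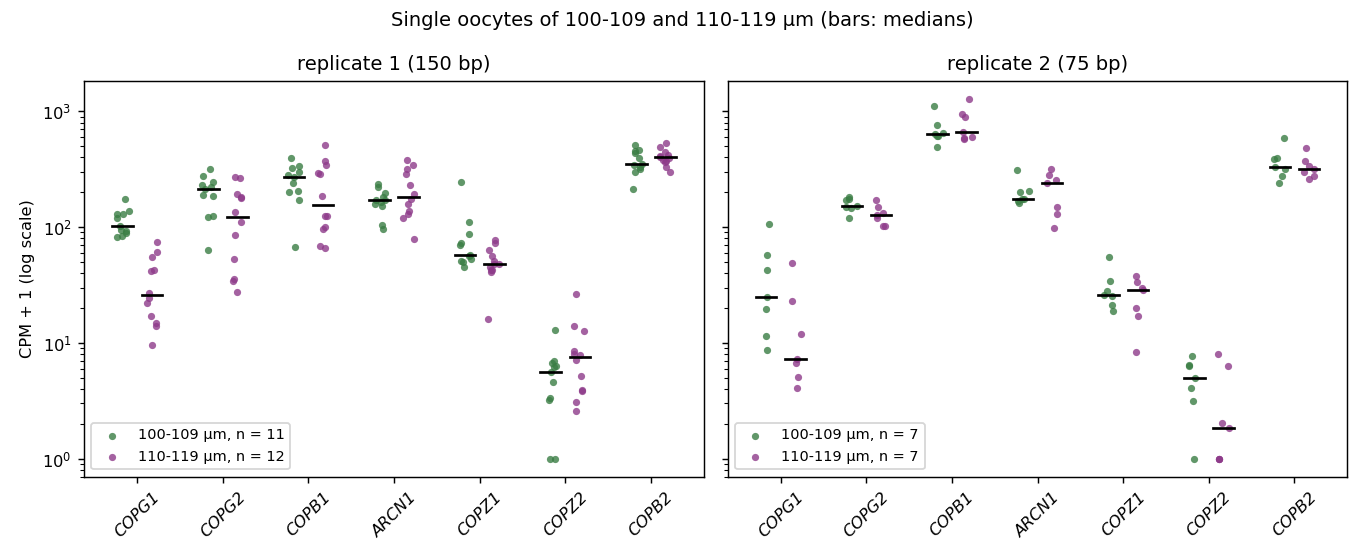
CPM + 1 (log scale) of the 7 subunits in single oocytes of 100 to 109 μm and 110 to 119 μm, in replicate 1 (11 and 12 oocytes) and replicate 2 (7 and 7 oocytes), with bars at the medians. In replicate 1 the COPG1 points of the groups are separate (81.4 to 174 against 8.67 to 73.6 CPM), and those of the other subunits overlap.

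Before and after this step COPG1 did not pass the test. It stood at a log2 difference of 0.17 (SE 0.30, adjusted p = 0.934) at 70 to 79 μm against < 70 μm and of -0.32 (SE 0.30, adjusted p = 0.963) at 80 to 99 μm against 70 to 79 μm. At 100 to 109 μm against 80 to 99 μm the difference was 0.73 (SE 0.29, adjusted p = 0.237), and at > 120 μm against 110 to 119 μm it was 0.72 (SE 0.37, adjusted p = 0.463). In the contrast of 70 to 109 μm against the smaller and larger oocytes COPG1 was at 0.58 (SE 0.18, adjusted p = 0.111). The slope of COPG1 over the whole range, -0.11 per 10 μm (SE 0.04, adjusted p = 0.0342), was -0.11 within replicate 1 and -0.10 within replicate 2. This call was lost without any 1 of 11 of the 16 sums, which were 60 to 69 μm, 100 to 109 μm and > 120 μm of either replicate, 110 to 119 μm of replicate 1, and < 60 μm, 70 to 79 μm, 80 to 89 μm and 90 to 99 μm of replicate 2 (slopes from -0.10 to -0.07, adjusted p from 0.0580 to 0.203), the slope moving most without the < 60 μm sum of replicate 2 (-0.07), and with all 179 deposited oocytes (-0.10, adjusted p = 0.0693).

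COPG1 also differed between the replicates. Replicate 1 held 2.56 to 7.01 times the CPM of replicate 2 in all 8 size groups, with a median ratio of 3.92. COPZ1 (1.16 to 5.27 times) and COPZ2 (1.13 to 3.08 times) were also higher in replicate 1 in all 8 groups, and COPB1 was higher in replicate 2 in all 8 (1.56 to 4.64 times). The other 3 subunits were on either side, between 0.706 and 1.69 times. The highest ratio of COPZ1 was that of 100 to 109 μm, which was 2.31 without the dominating oocyte, and without it COPB2 was higher in replicate 1 in all 8 groups by 1.01 to 1.28 times. Of all genes tested, 22.1% were higher in replicate 1 and 18.2% in replicate 2 in all 8 groups. Read length and library batch cannot be told apart as the source of this difference.

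By the mean of its sums COPG1 was ordered 100 to 109 μm (83.2 CPM ± 70.0, SD, n = 2 sums), 90 to 99 μm (66.0 ± 70.0), 70 to 79 μm (56.9 ± 39.6), < 60 μm (56.3 ± 39.5), 60 to 69 μm (53.9 ± 51.5), 80 to 89 μm (51.7 ± 54.7), > 120 μm (37.2 ± 31.2) and 110 to 119 μm (20.0 ± 12.4). The SDs hold the replicate difference, and the differences between neighbours in this order were smaller than the larger SD of each pair. Within the replicates 3 of the 7 neighbouring pairs had this order in both, 100 to 109 above 90 to 99 μm (not without the dominating oocyte), 70 to 79 above < 60 μm and > 120 above 110 to 119 μm.

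COPG2 (ENSBTAG00000017245), the gene of gamma-2-COP, was lower in larger oocytes. Its sums held 245, 271, 262.7, 185, 240.3, 126, 109 and 112 CPM in replicate 1, and 164, 164, 155, 147.3, 163, 155, 127 and 130.2 CPM in replicate 2, from the smallest to the largest group. In replicate 1 the sums from 100 μm were below the others. The dominating oocyte, at 62.3 CPM against 120.6 to 317 CPM in the other 10, lowered the 100 to 109 μm sum, which held 197.7 CPM without it and was then above that of 80 to 89 μm (182.5 CPM). Replicate 2 lay between 147.3 and 164 CPM up to 109 μm and at 127 and 130.2 CPM above.

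The slope of COPG2 was -0.12 per 10 μm (SE 0.03, adjusted p = 0.00756), with -0.20 within replicate 1 and -0.05 within replicate 2. Without the > 120 μm sum of replicate 1 the slope was -0.09 and not called (adjusted p = 0.0943). At 110 to 119 μm against 100 to 109 μm the log2 difference of COPG2 was -0.25 (SE 0.31, adjusted p = 0.630), and -0.52 (SE 0.27, adjusted p = 0.268) without the dominating oocyte. The COPG2 gene overlaps MEST in the RefSeq annotation (ARS-UCD2.0), the same table lists COPG2 among the older names of COPG1, and the treatment of strand and of reads shared by paralogs was not given in the sources used here, so the split of counts between COPG1, COPG2 and MEST is uncertain.

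COPB1 (ENSBTAG00000006556) encodes beta-COP and ARCN1 (ENSBTAG00000006690) encodes delta-COP, the large and medium subunits of the adaptor-like layer beside gamma and zeta. Both were lower in larger oocytes. COPB1 held 551, 431.5, 441, 378, 385, 161, 195 and 113 CPM in replicate 1, and 859.9, 854, 709, 676, 783, 665, 777 and 524 CPM in replicate 2. In each replicate the > 120 μm sum was the lowest of the 8. Without the dominating oocyte the 100 to 109 μm sum of replicate 1 held 263.3 CPM of COPB1.

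The slope of COPB1 was -0.18 per 10 μm (SE 0.04, edgeR adjusted p = 0.00241), with -0.31 within replicate 1 and -0.07 within replicate 2. Between the ends of the range COPB1 was 2.76-fold lower at > 120 μm than at < 60 μm (log2 fold change -1.47, SE 0.39, adjusted p = 0.0131), in a comparison that called 19.2% of all genes, 9.8% as lower, and 2 of the 7 subunits. This call was lost without the < 60 μm sum of replicate 1 (-1.05, adjusted p = 0.140) or the > 120 μm sum of replicate 1 (-0.98, adjusted p = 0.209), and without the replicate block (-1.15, adjusted p = 0.611).

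ARCN1 held 336, 307, 246.1, 232.3, 221.4, 156, 198.2 and 149 CPM in replicate 1, and 269, 248.7, 267.9, 253, 236, 191, 191 and 211 CPM in replicate 2. Groups up to 99 μm were above 220 CPM in both replicates and groups from 100 μm were below 215 CPM. Its slope was -0.11 per 10 μm (SE 0.03, adjusted p = 0.00555), with -0.16 and -0.07 within the replicates. Without the < 60 μm or the > 120 μm sum of replicate 1 the call was lost (adjusted p = 0.0546 and 0.0844). At > 120 μm against < 60 μm ARCN1 was at -0.76 (SE 0.27, adjusted p = 0.0561).

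**Figure D4:**
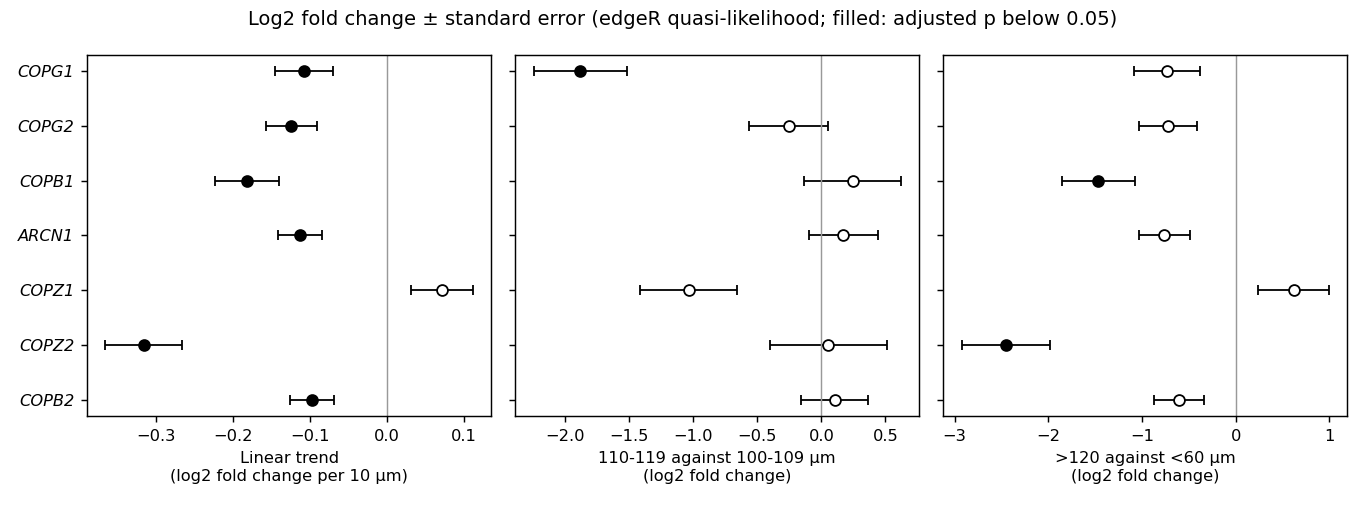
Log2 fold change ± standard error of the 7 subunits for the linear trend per 10 μm, for 110 to 119 μm against 100 to 109 μm and for > 120 μm against < 60 μm, with filled points for an adjusted p below 0.05 (edgeR). The trend holds 6 filled points, all below 0, the middle panel only that of COPG1 at -1.88, and the last those of COPB1 at -1.47 and COPZ2 at -2.45.

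COPZ2 (ENSBTAG00000039954), the gene of zeta-2-COP, a small subunit that pairs with gamma, had the steepest decline of the 7. Its sums held 24.2, 13.3, 12.1, 6.70, 6.22, 4.39, 7.14 and 5.02 CPM in replicate 1, and 12.4, 9.60, 6.53, 3.82, 4.58, 3.9, 2.34 and 1.63 CPM in replicate 2. The > 120 μm sum of replicate 2 rested on 7 counts.

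The slope of COPZ2 was -0.32 per 10 μm (SE 0.05, adjusted p = 9.72e-05), with -0.29 and -0.38 within the replicates. It was 5.47-fold lower at > 120 μm than at < 60 μm (log2 fold change -2.45, SE 0.47, adjusted p = 0.00161), with -2.27 and -2.93 within the replicates. Leaving out any 1 of the 16 sums ended neither call, and without the replicate block the trend of COPZ2 was called (-0.31, adjusted p = 0.0297) and the difference between the ends was not (-2.40, adjusted p = 0.144). With 250000 counts per oocyte, a COPZ2 count was seen in 95.2% of oocytes at < 60 μm, 79.2% at 80 to 89 μm, 38.9% at 100 to 109 μm and 42.9% at > 120 μm. The COPZ2 gene overlaps the microRNA genes MIR152 and MIR148C in the RefSeq annotation.

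COPZ1 (ENSBTAG00000005384), the gene of zeta-1-COP, did not follow the decline. In replicate 1 its sums held 38.4, 55.7, 51.7, 62.9, 61.3, 143.8, 44.7 and 104 CPM, and in replicate 2 they held 33.1, 26.6, 24.8, 26.5, 26.2, 27.3, 24.7 and 31 CPM. In replicate 1 the sums at 100 to 109 μm and > 120 μm were high, but the former was at 64.7 CPM without the dominating oocyte, near the 62.0 and 60.7 CPM at 80 to 89 and 90 to 99 μm in that scaling. Replicate 2 stayed within 24.7 and 33.1 CPM.

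Its slope was 0.07 per 10 μm (SE 0.04, adjusted p = 0.175), with 0.15 within replicate 1 and -0.01 within replicate 2. COPZ1 was called as higher with diameter without the < 60 μm sum of replicate 2 (0.14, SE 0.04, adjusted p = 0.0149) or the 100 to 109 μm sum of replicate 2 (0.10, SE 0.04, adjusted p = 0.0331). At 110 to 119 μm against 100 to 109 μm COPZ1 was at -1.04 (SE 0.38, adjusted p = 0.100), and at -0.31 (SE 0.32, adjusted p = 0.590) without the dominating oocyte, which alone held 77.8% of the COPZ1 counts of its sum at 243 CPM, whereas the other 10 oocytes held 44.5 to 110.0 CPM. At > 120 μm 1 oocyte of replicate 1 held 198.2 CPM and 1439 of the 2650 COPZ1 counts, against a median of 72.1 CPM over 10 oocytes. COPZ1 overlaps GPR84 and MIR148B in the RefSeq annotation, and counts of these genes cannot be told apart where strand was not used.

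COPB2 (ENSBTAG00000014843) encodes beta-prime-COP of the outer layer, the only subunit of that layer measured here. Its sums held 438.9, 539, 491, 415, 446.2, 286.1, 357.6 and 282.7 CPM in replicate 1, and 406.5, 398, 455, 380.3, 342, 344, 323.8 and 273 CPM in replicate 2. The highest 3 sums of each replicate were those below 80 μm, except that 90 to 99 μm took the third place in replicate 1, and the > 120 μm sum was the lowest in each.

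The slope of COPB2 was -0.10 per 10 μm (SE 0.03, adjusted p = 0.0122), with -0.11 and -0.08 within the replicates. The call was lost without any 1 of 9 of the 16 sums, which were < 60 μm, 60 to 69 μm and > 120 μm of either replicate and 80 to 89 μm, 90 to 99 μm and 110 to 119 μm of replicate 2 (adjusted p from 0.0512 to 0.0932). The COPB2 gene ID stood on 2 lines of the count table, with 107580 and 40913 counts, which were summed. The trend held on the first line alone (-0.11, adjusted p = 0.00599) and not on the second (-0.07, adjusted p = 0.0730). The second line took 20.9% to 31.6% of the counts in 15 sums and 46.5% in the sum of 110 to 119 μm of replicate 1, where single oocytes ranged from 15.2% to 72.1%.

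In the remaining comparisons of neighbouring sizes no subunit was called. These were 70 to 79 μm against < 70 μm (0.135% of all genes called), 80 to 99 μm against 70 to 79 μm (0% called), 100 to 109 μm against 80 to 99 μm (0.497% called) and > 120 μm against 110 to 119 μm (0.0071% called). At an unadjusted p under 0.05, edgeR had 0, 0, 2 and 1 subunits in these, where 7.55%, 5.54%, 16.1% and 11.1% of all genes had one, and DESeq2 called 0 in each at its adjusted p (0.589%, 0.121%, 3.59% and 0.0142% of all genes). At 100 to 109 μm against 80 to 99 μm the 2 subunits were COPG1 at 0.73 and COPZ1 at 0.76 (SE 0.32, adjusted p = 0.251), and the other 5 lay between -0.65 and -0.32. Without the dominating oocyte COPG1 was at 0.60 (SE 0.29, adjusted p = 0.579) and COPZ1 at 0.07 (SE 0.27, adjusted p = 0.948), and the other 5 lay between -0.37 and -0.03. The contrast of 70 to 109 μm against the other sizes called none of the 7 with edgeR (0.831% of all genes called), with 1 at an unadjusted p under 0.05 (16.1% of all genes), and DESeq2 called 1 (4.45% of all genes).

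The counts of each paralog pair were set against each other within the sums, which needs no library size. Because transcript lengths enter a share of counts, only its differences between sums are given as a result. COPG1 took 25.6% of the COPG1 and COPG2 counts at < 60 μm in replicate 1 (95% Wilson interval 24.3% to 26.9%, counting error only) and 14.7% in replicate 2 (14% to 15.5%). It took 51.2% (49.7% to 52.8%) and 17.9% (16.3% to 19.6%) at 100 to 109 μm, and 20.9% (19.7% to 22.2%) and 8.13% (6.74% to 9.78%) at 110 to 119 μm. The 100 to 109 μm share was the highest of the 8 in both replicates. In replicate 1 the margin rested on the dominating oocyte, without which the share was 35.1% (33.2% to 37.0%), against 34.7% (33.3% to 36.1%) at > 120 μm. The 110 to 119 μm share was the lowest in replicate 1, and in replicate 2 its interval overlapped those of 60 to 69, 80 to 89, 90 to 99 and > 120 μm, with 8.15% (7.24% to 9.18%) at 80 to 89 μm the nearest. The interval of the 100 to 109 μm share of replicate 2 overlapped that of 70 to 79 μm, 15.7% (14.4% to 17.02%).

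Over the whole size range the slope of the ratio of COPG1 to COPG2 did not pass the test (log2 slope 0.02 per 10 μm, SE 0.06, adjusted p = 0.755, two-sided permutation test with 100000 permutations within replicate, adjusted over the 2 ratios). By replicate the slope was 0.09 and -0.05, and without the 100 to 109 μm sum of replicate 1 it was -0.01. The ratio of COPZ1 to COPZ2 rose with a log2 slope of 0.40 per 10 μm (SE 0.07, adjusted p = 0.00012, same permutation test), with 0.44 and 0.35 within the replicates, or 7.25-fold over the 72.2 μm between the mean diameters of the smallest and the largest group. COPZ1 took 61.3% (58.0% to 64.5%) and 72.7% (70.8% to 74.6%) of the pair's counts at < 60 μm in replicates 1 and 2, and 95.4% (94.5% to 96.1%) and 95% (90.0% to 97.6%) at > 120 μm. The shares at > 120 μm were thus above those at < 60 μm in both replicates, and the slope was 0.38 without the dominating oocyte.

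**Figure D5:**
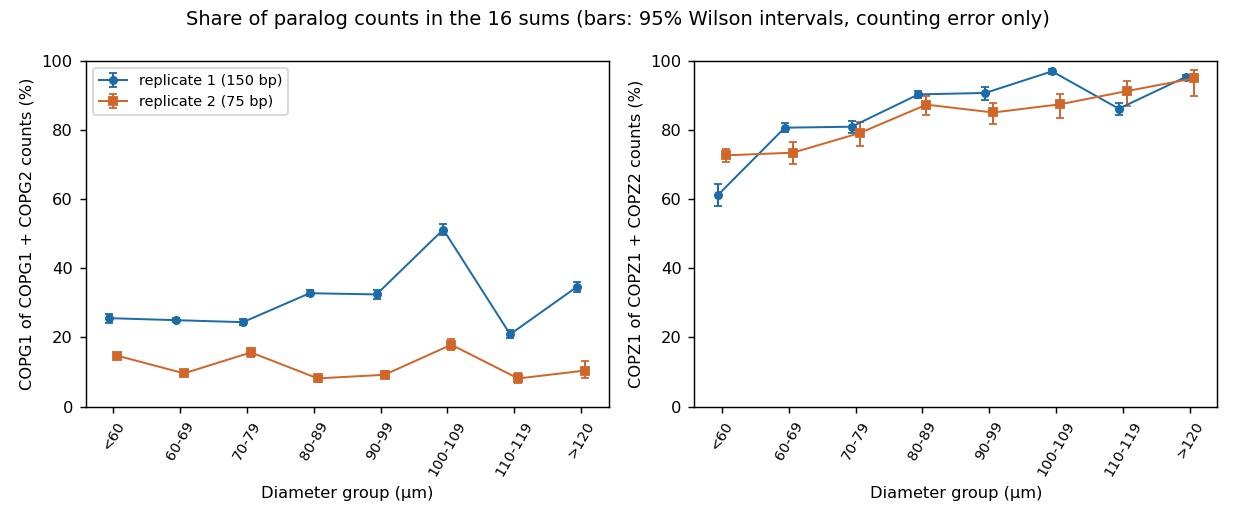
Share of COPG1 in the COPG1 and COPG2 counts (left) and of COPZ1 in the COPZ1 and COPZ2 counts (right), in percent, for the 16 sums by diameter group in μm, with circles for replicate 1, squares for replicate 2 and bars for 95% Wilson intervals that cover counting error only. COPG1 is highest at 100 to 109 μm (51.2% and 17.9%), where replicate 1 holds 35.1% without its dominating oocyte, and COPZ1 goes from 61.3% and 72.7% at < 60 μm to 95.4% and 95% at > 120 μm.

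In single oocytes, whose counts are those of the sums, the levels of 6 of the 7 subunits went down with diameter in both replicates. The share of all genes that did so was not computed. With replicate means subtracted, Pearson's r between log2(CPM + 1) and diameter over all analysed oocytes was -0.600 for COPZ2, -0.514 for COPB1, -0.495 for COPB2, -0.435 for COPG2, -0.430 for ARCN1, -0.317 for COPG1 and -0.019 for COPZ1. These values carry no test, since oocytes share a size group and a replicate, differ in depth and may share an animal. The order differed between the replicates, with COPB1 at -0.653 in replicate 1 and -0.292 in replicate 2, COPB2 at -0.536 and -0.452, and COPZ2 at -0.549 and -0.653.

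Among pairs of subunits, r was highest within the set of ARCN1, COPB1, COPB2 and COPG2, over sums and over oocytes. Over the 16 sums, which share size groups and replicates, their pairwise r of log2 CPM lay between 0.800 and 0.903. Over the single oocytes it lay between 0.498 and 0.731. The set was picked by these r values, and each of its genes was called as lower with diameter. Only the replicate means were removed, so these r values include the shared decline with diameter. Whether these genes vary together beyond that decline was not tested. How often other declining genes reach such r was not computed. COPZ2 was at 0.790 with ARCN1, 0.657 with COPB1, 0.734 with COPB2 and 0.613 with COPG2 over the sums, but between 0.012 and 0.148 with them over the oocytes. COPG1 was at 0.157 with ARCN1, 0.264 with COPB1, 0.290 with COPB2 and 0.478 with COPG2 over the sums. COPZ1 was at -0.689, -0.694, -0.624 and -0.497 with ARCN1, COPB1, COPB2 and COPG2 over the sums, and at 0.063, -0.200, 0.038 and 0.028 over the oocytes. COPG1 and COPZ1 were at 0.325 over the sums and 0.457 over the oocytes.

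Among 2929 tested genes with a symbol, 5 had the profile most like that of COPG1 over the 16 sums by Pearson's r of log2 CPM after removal of the replicate means. These were CAMSAP3 (0.947), which binds the minus ends of microtubules, the receptor tyrosine kinase gene CSF1R (0.937), AP4M1 (0.920), the medium subunit of the AP-4 adaptor complex, C26H10orf90 (0.917) and CTSZ (0.916), a lysosomal protease. CAMSAP3 went from 774 to 226.8 CPM in replicate 1 and from 333 to 150.0 CPM in replicate 2 between 100 to 109 and 110 to 119 μm (log2 difference -1.44). The log2 difference at this step was -1.39 for CSF1R, -1.30 for AP4M1, -0.87 for CTSZ and -0.78 for C26H10orf90. No test is given for these differences, since the genes were chosen for a profile that holds them. Like COPG1, all 5 were higher in replicate 1 than in replicate 2 in all 8 size groups, with median ratios of 2.24 (CAMSAP3) to 3.87 (AP4M1).

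Of the 12 genes listed for the ARF cycle, which loads COPI onto membranes and releases it, 10 were paired and tested. In the linear trend 3 were upregulated and 2 downregulated (15.4% and 19.4% of all genes), and none was called at 110 to 119 μm against 100 to 109 μm, where 5 had an unadjusted p under 0.05 (26% of all genes, edgeR, lowest adjusted p = 0.0682) and their median log2 fold change was -0.74 (-0.06 for all genes tested). The COPI-linked GTPase-activating protein gene ARFGAP3 fell in replicate 1 from 85.3 to 17.8 CPM between the smallest and the largest group, and in replicate 2 from 58.7 to 16.1 CPM (slope -0.32, SE 0.03, adjusted p = 1.6e-06). ARF2, a class I ARF GTPase gene, rose in the same way from 25.6 to 106 CPM and from 27 to 79.4 CPM (slope 0.23, SE 0.03, adjusted p = 1.11e-05). The Golgi GTPase gene ARFRP1 fell from 33.2 to 15.2 CPM and from 26.9 to 9.55 CPM (slope -0.21, SE 0.04, adjusted p = 0.000612).

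Of 23 listed genes for Golgi tethers and SNAREs only 7 were paired, and the trend called 2 as higher and 3 as lower (15.4% and 19.4% of all genes). BNIP1, a SNARE of Golgi to endoplasmic reticulum transport, rose with a slope of 0.20 (SE 0.05, adjusted p = 0.00457), while the tether genes COG2 (-0.19, SE 0.04, adjusted p = 0.00142) and COG3 (-0.13, SE 0.03, adjusted p = 0.00540) fell. COG3 also differed between replicates, with 7.14 to 25.4 CPM in replicate 1 and 45.4 to 75.1 CPM in replicate 2.

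Clathrin and the AP adaptors coat vesicles at the trans-Golgi network, endosomes and the plasma membrane, and 29 of 31 listed genes were paired. The trend called 3 of them as higher and 10 as lower (15.4% and 19.4% of all genes), with a median slope of -0.08 per 10 μm. At 110 to 119 μm against 100 to 109 μm 4 were called, all lower (1.99% of all genes), among them AP2A2 (-1.51, SE 0.40, adjusted p = 0.0449) and AP3D1 (-1.24, SE 0.32, adjusted p = 0.0445). These calls depended on the fit, since in this comparison 0% of all genes were called without the replicate block and 0.0142% with all 179 oocytes. AP2A2 went from 58.3 to 17.6 CPM in replicate 1 and from 29.8 to 11.9 CPM in replicate 2. AP3B1 fell between the smallest and the largest group from 351 to 57.5 CPM in replicate 1 and from 362 to 123 CPM in replicate 2 (slope -0.27, SE 0.03, adjusted p = 4.77e-06).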

How the data were processed

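Reads were trimmed by the authors with Trim Galore (version 0.6.6, per the submitters' processing notes) and mapped with HISAT2 to ARS-UCD1.2 (bosTau 9), and SeqMonk gave the count of each gene. The authors deposited these raw counts per gene and oocyte, neither normalized nor corrected for batch. The treatment of strand, overlapping genes and multiply aligned reads is not given in the sources used here. The 165 oocytes that passed the quality control of the study were matched to their counts by ID, and the other 14 of the 179 were used in an alternative. Symbols came from the study's supplementary gene lists, of which a part was used here (3608 gene IDs with a symbol). Lines of 1 gene ID were summed.

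Counts were summed by size group and replicate (16 sums), filtered with filterByExpr (minimum count 10, total 15, 14087 genes), normalized by TMM and tested with the quasi-likelihood test of edgeR 4.0.16 (R 4.3.3), on a model of 8 size groups blocked by replicate. P-values were adjusted over all genes (Benjamini-Hochberg) and called at 0.05. The standard error was the log2 fold change divided by the square root of F. The replicate is a library batch by the study's methods, and the deviations of same-numbered sums correlated at 0.334 to 0.648 over 28 pairs of groups (median 0.543), so the replicate number pairs the sums. The wider size groups were contrasts of group means. Paralog ratios used counts + 0.5, and profiles were compared on log2(CPM + 0.5). Intervals cover counting error only, since the libraries carry no molecular identifiers. The fit was tested on simulated data.

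All paired COPI subunits were named, the 3 genes of each other list with the smallest p for any difference, and the 5 genes with the highest r with COPG1. The members and lists were chosen with earlier results of these data known. The alternatives were no replicate block, RLE size factors, DESeq2 1.42.0, all 179 oocytes, single oocytes as units, no filter on low counts, 250000 counts per oocyte and each sum left out in turn. Leaving out the dominating oocyte and using each COPB2 line alone were chosen after seeing the data. Plots were drawn with matplotlib 3.10.9 and tables handled with pandas 2.3.3 and scipy 1.17.1 under Python 3.11.15.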

Additional observations from a re-analysis of the deposited data

Results flagged for a closer look

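The 14 deposited oocytes outside the analysed set also held COPG1 reads, which enter no comparison of the report. COPG1 had more than 3 counts in 8 of these 14 oocytes and no count in 5, with 440 counts in all and 300 in the highest oocyte. COPB1 had more than 3 counts in 12 of them, and COPZ2 in 6. The reason why an oocyte was left out of the study's set was not used here, and these values were not tested.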

How the results depend on the processing

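The counts of called subunits moved with the replicate block, with single oocytes as units, with depth, with the tool and the filter, with the oocytes used and with single sums. Without the replicate block the count was 0 for any difference, 1 for the trend, 0 for 110 to 119 against 100 to 109 μm and 0 for > 120 against < 60 μm, where 0%, 7.68%, 0% and 0.575% of all genes were called. With single oocytes as units it was 6, 3 and 6 for any difference and these 2 comparisons, and 2 for 70 to 109 μm against the other sizes, where 65.4%, 36.9%, 40.5% and 30.4% of all genes were called. With all 179 oocytes it was 1 for any difference and 0 for 110 to 119 against 100 to 109 μm (11.1% and 0.0142% of all genes). With 250000 counts per oocyte it was 4 for any difference, 4 for > 120 against < 60 μm and 1 for 70 to 109 μm against the other sizes (24.8%, 24.9% and 6.01% of all genes), which was also 1 with DESeq2 (4.45%) and 1 without the filter on low counts (2.15%). DESeq2 also called 3 for any difference (29.1% of all genes) and 3 for > 120 against < 60 μm (24.3%), and the fit without the filter called 3 for any difference (17.7%). With each of the 16 sums left out in turn, the count ranged from 1 to 2 for any difference (10.6% to 18.9% of all genes), from 2 to 6 for the trend, from 0 to 2 for 110 to 119 against 100 to 109 μm (0% to 9.94%), from 1 to 3 for > 120 against < 60 μm (7.40% to 19.0%) and from 0 to 1 for 70 to 109 μm against the other sizes (0.148% to 4.54%). The lowest trend count, 2, came without the > 120 μm sum of replicate 1 (22.7% of all genes, and up to 32.6% without another sum). COPZ1 was among the called subunits, as higher, without the < 60 μm or the 100 to 109 μm sum of replicate 2. The slope of the COPG1 to COPG2 ratio was -0.00405 with 250000 counts per oocyte, where it was 0.02 in the report, and ranged from -0.00571 to 0.0458 with 1 sum left out. The cause of these changes was not tested. RLE size factors kept every count. Sums of 7 to 42 COPZ2 counts in replicate 2 from 100 μm limit the precision of that gene.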
